A study of Mus musculus with 39 samples.

Results

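Three-dimensional contacts of the embryonic ζ-globin gene Hba-x and of both θ-globin genes, Hbq1b and Hbq1a, were followed through erythroid differentiation and after deletion of α-globin enhancers or promoters. The members were all DpnII restriction fragments that overlapped 1 of these 3 genes extended by 1 kb on each side, which gave 25 fragments of the 295448 on chromosome 11, or 3 of 2953 gene windows. All 3 genes lie on the plus strand of chromosome 11 (mm9, GENCODE vM1 gene models). Hba-x (ENSMUSG00000055609.2) occupies chr11:32176400-32178116, and 13 fragments at chr11:32175363-32179641 cover its promoter, exons and introns. Hbq1b (ENSMUSG00000073063.3) occupies chr11:32186965-32187784, with 8 fragments at chr11:32185903-32188875. Hbq1a (ENSMUSG00000020295.1) occupies chr11:32200069-32200873, with 4 fragments at chr11:32198229-32203107. From centromere to telomere the genes of the cluster read Hba-x, Hba-a1, Hbq1b, Hba-a2 and Hbq1a.

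The contacts came from NG Capture-C, in which cross-linked chromatin is cut with DpnII and re-ligated, and ligation partners of chosen fragments, the viewpoints, are enriched with probes and sequenced. Mouse embryonic stem cells (mES, 1 line, E14, labelled 129/Ola) and erythroid cells grown from C57Bl6-labelled foetal livers of embryonic day 12.5 (MFL) were compared. The MFL cells were expanded in culture and then depleted of Ter119-positive cells, which gave the 0 h population, and these were differentiated for a further 30 h. Each population held cells at varying stages. Each comparison between groups had 3 libraries a side unless 1 is stated, which the labels call biological replicates. DKO cells carried homozygous deletions of the enhancers R1 and R2 and were set against WT cells, both after 30 h of the same culture. AMKO cells carried a homozygous deletion of both adult α-globin genes, with 1 library for AMKO and 1 for WT. A further experiment had 1 library each of untreated cells, cells given the solvent DMSO, and cells given DRB, an inhibitor of RNA polymerase II elongation, all at 30 h. Of the 39 samples in the series, those with viewpoints on the α-globin locus were used.

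As background, α-like globins are the partners of β-like globins in haemoglobin. Hba-x encodes the ζ chain, the α-like globin of the primitive red cells of the early embryo, and is replaced by Hba-a1 and Hba-a2 in definitive red cells, the lineage cultured here. The θ genes are α-like globin genes of unknown role that accompany the adult pair. The α-globin enhancers R1 and R2 (MCS-R1 and MCS-R2) lie upstream of the whole cluster, within introns of Nprl3, and CTCF sites on both sides separate the locus from its neighbours. Of the other viewpoints, E, Ex, A, C and Cx are fragments along the same chromosome that hold no globin promoter. HS39.5, CTCF_44 and CTCF_48 are CTCF sites, the first on the enhancer side and the last 2 beyond the θ genes.

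How far reads can be told apart between copies limits the θ genes, and so their sequences come first. In the stretch below (mm9, plus strand) the θ copies differ at 5 of 300 bases, which are in capitals.

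Hbq1b, chr11:32187065-32187364: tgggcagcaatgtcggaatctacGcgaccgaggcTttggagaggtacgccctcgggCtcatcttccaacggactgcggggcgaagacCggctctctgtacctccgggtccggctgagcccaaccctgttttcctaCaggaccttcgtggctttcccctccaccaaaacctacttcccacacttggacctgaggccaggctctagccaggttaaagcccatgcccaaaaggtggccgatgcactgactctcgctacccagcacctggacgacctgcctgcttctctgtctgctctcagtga

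Hbq1a, chr11:32200170-32200469: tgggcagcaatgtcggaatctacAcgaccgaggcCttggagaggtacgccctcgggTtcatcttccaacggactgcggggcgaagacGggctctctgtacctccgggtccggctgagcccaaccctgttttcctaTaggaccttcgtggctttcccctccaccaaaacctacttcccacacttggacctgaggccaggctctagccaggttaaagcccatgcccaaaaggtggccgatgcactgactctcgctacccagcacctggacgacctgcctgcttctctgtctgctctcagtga

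The coding part of exon 1 differed at 2 of 95 bases between the copies and that of exon 2 at 0 of 205. Reads from these exons therefore carried few bases that tell Hbq1b from Hbq1a. Up to 63.1% of the 50-base words of a Hbq1b fragment recurred elsewhere on chromosome 11, against under 5% for 10 of the 13 Hba-x fragments (2 others are too short to hold such a word). For Hbq1a, the fragment furthest downstream, 2638 bp long, was the only 1 of 4 under 5%. Of Hba-x, 2 short fragments turned out to matter below, and they are shown with the DpnII sites (GATC) in capitals. Fragment 5 starts 244 bp upstream of the gene, and fragment 10 lies in coding sequence.

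Hba-x fragment 5, chr11:32176154-32176204: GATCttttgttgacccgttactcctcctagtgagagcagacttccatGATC

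Hba-x fragment 10, chr11:32177659-32177759: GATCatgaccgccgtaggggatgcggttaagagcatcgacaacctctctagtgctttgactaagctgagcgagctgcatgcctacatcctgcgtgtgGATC

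A further sequence, fragment 5 of Hbq1b, starts downstream of that gene. It belongs to the downstream fragments of Hbq1b that have no 50-base word in the other θ copy, which serve below to read the AMKO library.

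Hbq1b fragment 5, chr11:32187830-32187971: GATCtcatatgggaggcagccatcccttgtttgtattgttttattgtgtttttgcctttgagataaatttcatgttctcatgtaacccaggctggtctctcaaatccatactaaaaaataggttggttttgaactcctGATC

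Values are reads per 100000 reads from the same viewpoint that fell on chromosome 11 (cis), once every fragment within 1 kb of a viewpoint had been dropped, and those per kilobase divide by the summed length of a gene's fragments. A viewpoint of a library had 2287 to 188598 reporter reads, and 49.8% to 88.1% of them were cis. The cis share was higher in mES (75.4% to 88.1%) than in MFL of the same experiments (52.4% to 75.7%), with no overlap at any viewpoint. Each library is a population of cells, so that more contact per cell and more cells in contact cannot be told apart. No expression was measured in these libraries, and cell identity could not be checked against marker genes. The deletion in DKO was visible: seen from Hba-a1 and Hba-a2 (Hba1/2, the mean of both promoters), the R2 fragment had 731, 766 and 734 reads per 100000 cis in WT and 0, 0 and 13.4 in DKO. The R1 fragment had 584, 555 and 589 in WT and 109, 154 and 129 in DKO.

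The 3 genes were not contacted alike in differentiated erythroid cells, and the order changed with the viewpoint. In MFL at 30 h, the enhancer viewpoints contacted Hbq1b most, Hba-x next and Hbq1a least per kilobase, although Hba-x lay nearest. From R1, 31.6 kb from the centre of Hba-x and 41.5 kb from that of Hbq1b, the levels were 914 ± 87.7 (mean ± SD, n = 3) for Hbq1b, 454 ± 55.4 for Hba-x and 302 ± 47.3 for Hbq1a per kilobase. From R2 they were 709.7 ± 57.4, 563 ± 46 and 188.5 ± 12.8, and from E 1080.5 ± 107, 595 ± 41.8 and 265 ± 24.6 per kilobase. The replicates of neighbouring genes in these 3 orders did not overlap. In mES, R1, R2 and E contacted Hba-x most, Hbq1b second and Hbq1a least, again without overlap, so that Hba-x and Hbq1b had changed places. From R1 in mES, Hba-x had 289 ± 9.78, Hbq1b 253 ± 12.8 and Hbq1a 89.3 ± 5.66 per kilobase (n = 3).

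Viewpoints on the other side of the cluster ranked the genes differently. From A, next to Hbq1a, the θ genes were alike in MFL at 612 ± 37.9 for Hbq1a and 599 ± 47 for Hbq1b per kilobase, with overlapping replicates, and Hba-x stood apart at 127 ± 36.4 (n = 3). The CTCF sites beyond the θ genes had the order Hbq1b, Hbq1a, Hba-x in WT, with 596 ± 24.8, 300.5 ± 13.4 and 105 ± 8.94 per kilobase from CTCF_44. HS39.5, the CTCF site on the enhancer side, also contacted Hbq1b most, at 434 ± 72.4 per kilobase in MFL at 30 h, whereas Hba-x (205 ± 20.9) and Hbq1a (157 ± 50.6) overlapped. Hbq1b was thus the most contacted of the 3 from enhancers and from CTCF sites on both sides in 30 h cells. In MFL at 30 h the highest level was that of Hba-x from its neighbour Hba-a1, 1622 ± 134 per kilobase at a distance of 5.89 kb.

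**Figure D1:**
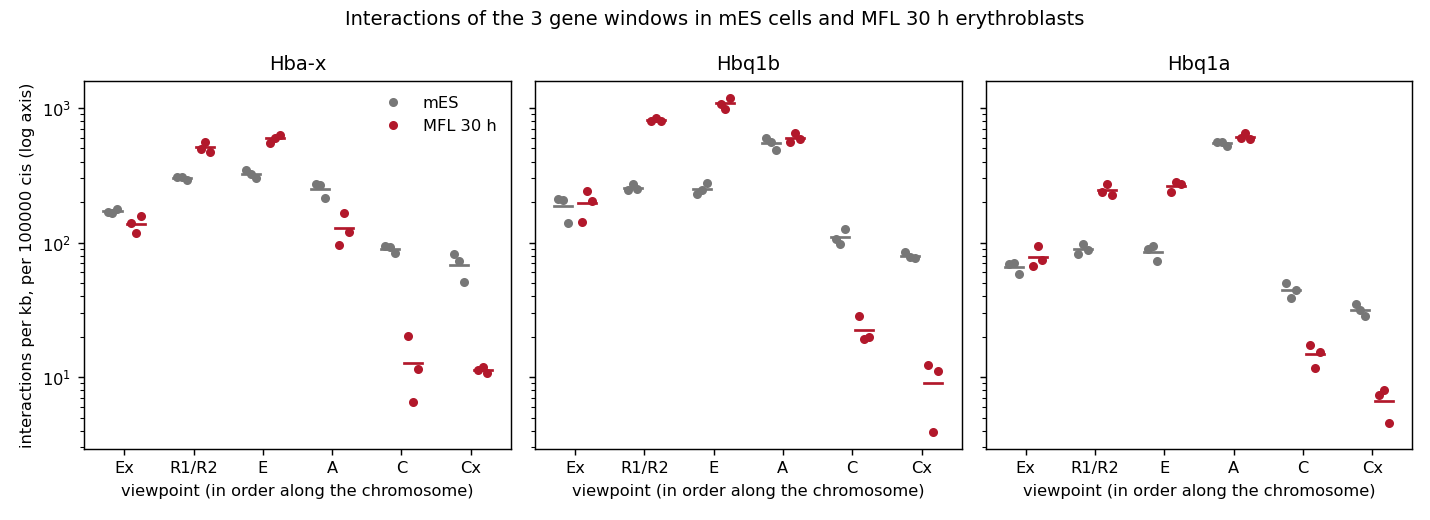
Interactions per kilobase (per 100000 cis reads, log axis) of Hba-x, Hbq1b and Hbq1a from 6 viewpoints, in mES (grey) and in MFL after 30 h (red); points are the 3 replicates and lines the means. From R1/R2 and E the red points lie above the grey ones in all 3 panels, furthest for Hbq1b, and from C and Cx they lie below.

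The comparison of mES with MFL asks how contacts of these genes with the enhancers differ between cells with a silent and an active α-globin locus. From R1/R2 (the mean of both viewpoints), contact with all 3 genes was higher in MFL, most for Hbq1b. For the MFL libraries of these viewpoints 1 label gives 30 h and another 0 h, and they are taken as 30 h here. The Hba-x window had 2126, 2382 and 2019 reads per 100000 cis in MFL and 1317, 1308 and 1251 in mES. Hbq1b had 2362.5, 2519 and 2360.5 in MFL and 731, 804 and 746 in mES, and Hbq1a had 1152, 1331 and 1107 in MFL and 402, 476 and 429 in mES. In each gene the lowest MFL library was above the highest mES library. The log2 differences, given with their standard errors throughout, were 0.75 ± 0.0766 for Hba-x, 1.67 ± 0.07 for Hbq1b and 1.46 ± 0.104 for Hbq1a, which are 1.68-, 3.17- and 2.74-fold. The adjusted p-values (limma, Benjamini-Hochberg over the 448 gene windows tested) were 3.73e-04, 1.58e-06 and 3.23e-05. Of all windows 13.4% were called higher, and the median window was 0.59 higher, below all 3 genes. Relative to the rest of the domain between HS39.5 and A, Hba-x was higher by 0.35, Hbq1b by 1.27 and Hbq1a by 1.06 on the log2 scale. With 3 libraries a side the exact two-sided permutation test cannot go below p = 0.1, which all 3 reached, and the smallest adjusted p over the 56 ratios compared was 0.193.

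Fragment by fragment, the difference was spread over the θ genes and uneven over the ζ gene. All 8 Hbq1b and all 4 Hbq1a fragments were called higher from R1/R2, against 7.91% of the 935 fragments tested, and 5 of 13 Hba-x fragments were. Fragment 1 of Hbq1b, upstream of the gene, had 380.1, 577 and 477 in MFL and 83.6, 88.2 and 90.4 in mES, a log2 difference of 2.42 ± 0.172 (limma adjusted p = 1.01e-04). That was the largest among the 25 fragments. The member fragment with the highest mean over both groups, fragment 2 of Hbq1b at the start of the gene, had 562, 418 and 411 in MFL and 118, 149 and 124 in mES (log2 1.81 ± 0.166, adjusted p = 2.55e-04). The highest Hba-x fragment, fragment 6, which holds its promoter, had 155, 384 and 253 in MFL and 177, 147 and 158.5 in mES (log2 0.62 ± 0.294, adjusted p = 0.157). Fragment 4 of Hbq1a, which starts in exon 2 and has 0.541% of its words in the Hbq1b window, was also higher, by 1.38 ± 0.179 on the log2 scale. Hba-x fragments ranged from -0.52 to 1.16. With limma's variance taken as the same at every level, the Hba-x call was lost (adjusted p = 0.0861), both θ window calls were kept, and 4 of the 25 member fragments were called in place of 17.

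Seen from E, a fragment between R1 and R2, the same pattern appeared in libraries of a separate experiment. Hbq1b had 3192, 2905 and 3540.3 in MFL and 686, 730.5 and 821 in mES, 4.3-fold (log2 2.1 ± 0.109, limma adjusted p = 1.12e-09). Hbq1a had 1157.5, 1384 and 1338 in MFL and 434, 458 and 354 in mES (3.12-fold, adjusted p = 3.74e-07). Hba-x had 2358, 2561 and 2714.6 in MFL and 1478, 1376 and 1297 in mES (1.84-fold, adjusted p = 4.75e-06). MFL and mES libraries overlapped for none of the 3 genes, and the share of all windows without overlap is not given. By limma 11.8% of the 397 windows tested were called higher. Among fragments, 8 of 13 in Hba-x, 8 of 8 in Hbq1b and 4 of 4 in Hbq1a were called higher, against 11.9% of 771. The log2 ratio of Hba-x to Hbq1b was 0.37 in mES and -0.86 in MFL from E, and 0.24 and -0.68 from R1/R2 (p = 0.1 each, exact permutation test, the smallest possible). The Hba-x call from E was lost on the values as deposited, per 100000 reporter reads in cis and trans together (log2 0.31, limma adjusted p = 0.0769), and without the variance trend (adjusted p = 0.101).

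Contacts with the far viewpoints moved the other way. From C, 77.1 kb from Hba-x, mES contacted all 3 genes more than MFL did. Hba-x had 401, 399.5 and 358 in mES and 86.2, 28 and 48.8 in MFL, while Hbq1b had 317, 289 and 373 in mES and 84.9, 57 and 59.1 in MFL. Hbq1a had 245, 189 and 215 in mES and 84.1, 57 and 74.6 in MFL. The groups did not overlap, although MFL counts were small, with 2 to 17 reads of a gene in a library. The log2 differences were -2.95 ± 0.29 for Hba-x, -2.28 ± 0.245 for Hbq1b and -1.59 ± 0.26 for Hbq1a (limma adjusted p = 1.73e-09, 9.00e-09 and 2.32e-05). Only 4.55% of the 505 windows tested were called lower, and the median window was 0.99 higher. Relative to the rest of the domain, Hba-x differed by -1.03 (log2 ratio, p = 0.1, exact permutation test). With edgeR on recovered reads the Hba-x difference was -2.30, and that of Hbq1a was -3.10 when a wider 5 kb around each viewpoint was dropped.

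Cx, further along still, repeated this. From Cx, Hba-x had 351, 312 and 217 in mES and 48.3, 51.2 and 46.1 in MFL (log2 -2.54 ± 0.268, limma adjusted p = 3.41e-19). Hbq1b had 252, 231 and 227 in mES and 36.4, 11.6 and 33.2 in MFL, and Hbq1a had 171, 153 and 139 in mES and 36.1, 39.4 and 22.1 in MFL. Both θ genes were called lower as well (-3.23 and -2.24 on the log2 scale, adjusted p = 3.20e-21 and 7.80e-10), against 6% of 500 windows. Relative to the rest of the domain, the groups overlapped for every gene from Cx. The log2 ratios differed by 0.03 for Hba-x, -0.69 for Hbq1b and 0.32 for Hbq1a (p = 0.9, 0.2 and 0.4, exact permutation test). Several of these MFL values lay near the 11 to 40.4 reads per 100000 cis that 3 reads are worth there, so that their size is poorly fixed. From the first of the repeats of each replicate alone Hbq1b came to -4.31, and from fragments under 5% shared alone Hbq1a came to -3.11. Member fragments called lower were 11 of 22 tested from C and 13 of 21 from Cx, against 7.95% and 7.96% of all fragments. Both counts fell to 0 when any 1 of the 3 mES libraries was left out. Fragments were tested at a mean of at least 10 over both groups, which members with low MFL values reached mainly through mES. These counts are therefore partly set by the filter, and no direction is read from them.

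From A the genes separated. Hba-x was contacted less in MFL, with 409, 715 and 512 against 1161, 1152.5 and 921 in mES, 2.02-fold lower (log2 -1.01 ± 0.19, limma adjusted p = 4.68e-04). Of the 431 windows tested from A, 6.5% were called lower. The θ genes were not called. Hbq1b had 1658, 1933 and 1756 in MFL and 1775, 1649 and 1437 in mES (0.14 ± 0.124, adjusted p = 0.432). Hbq1a had 2901, 3197 and 2857 in MFL and 2716, 2745.5 and 2525.5 in mES (0.16 ± 0.0989, adjusted p = 0.246). The replicates overlapped for Hbq1b and not for Hbq1a. The log2 ratio of Hba-x to Hbq1b differed by -1.15 between MFL and mES without overlap (p = 0.1, exact permutation test). All 13 Hba-x fragments were lower, although 0 of the 25 member fragments were called by limma, against 0.721% of 1110 called lower. An unadjusted p under 0.05 was reached by 9 of the 25 member fragments and by 259 of all 1110. Without the variance trend the Hba-x window was not called (adjusted p = 0.174), and without the 1 kb flanks Hbq1a was called higher (0.28, adjusted p = 0.0446). The sign of the θ genes from A was not settled: as deposited Hbq1b came to -0.13 and Hbq1a to -0.11, and Hbq1a came to -0.63 when 5 kb around each viewpoint was dropped.

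From Ex, which lies further upstream than R1, no gene was called different. Hba-x had 594, 505 and 677 in MFL and 721, 708.5 and 757.5 in mES, and its groups did not overlap (log2 -0.31 ± 0.155, limma adjusted p = 0.183). Hbq1b had 423.5, 717 and 609.5 in MFL and 626, 621 and 418 in mES (0.06 ± 0.185, adjusted p = 0.859), and Hbq1a had 325, 456 and 364 and 336, 346 and 285.5 (0.23 ± 0.205, adjusted p = 0.475). Their groups overlapped. Of the 470 windows 10.4% were called either way, and of the 25 member fragments 0 were called, against 1.04% of 959. An unadjusted p under 0.05 by limma was reached by 3 of the 25 member fragments and by 173 of all 959. On the values as deposited Hba-x was called lower (-0.55, adjusted p = 0.0419), and the signs of Hbq1b and Hbq1a turned (-0.17 and -0.0052).

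**Figure D2:**
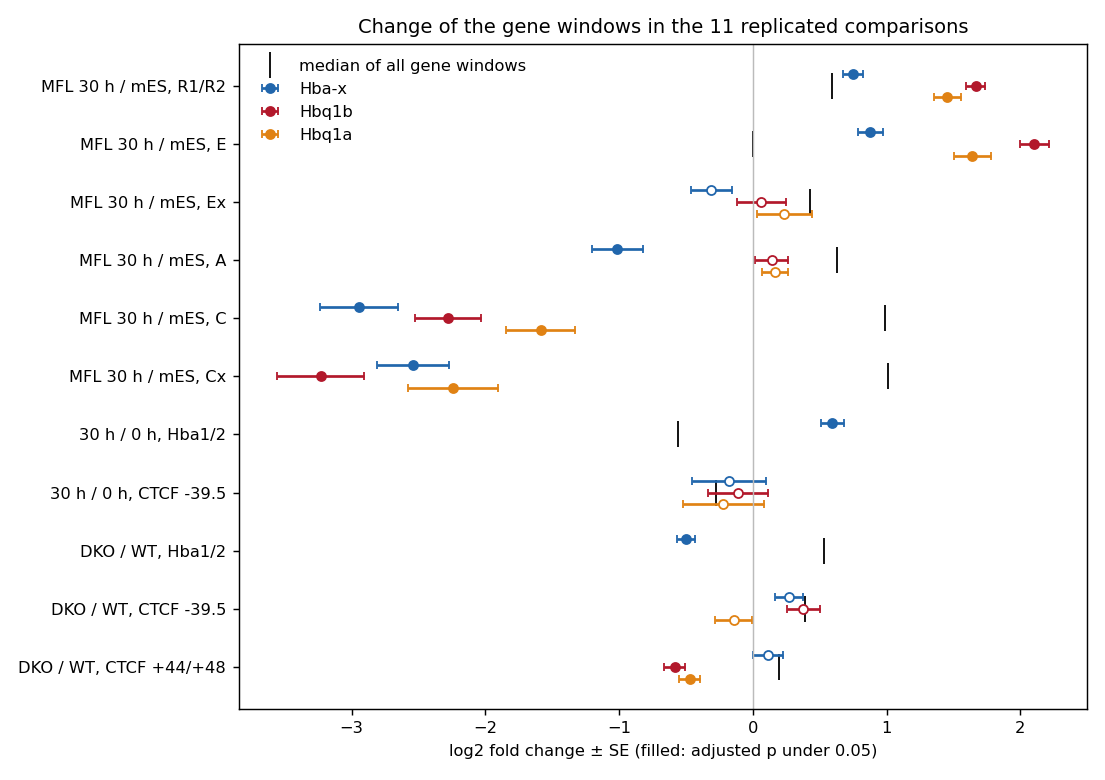
Log2 difference (± SE) of Hba-x, Hbq1b and Hbq1a in each of 11 comparisons, filled where the limma adjusted p was under 0.05; the black tick is the median of all gene windows tested in that comparison. All 3 genes lie above the tick from R1/R2 and E and below it from C and Cx, and Hba-x lies apart from the θ genes from A and from CTCF_44/CTCF_48.

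Between 0 h and 30 h of erythroid differentiation, contact of Hba-x with the adult promoters rose. By the rule for members, Hba-x alone was followed from Hba1/2. At 30 h, Hba-x had 6773, 5994 and 6646 reads per 100000 cis from Hba1/2, and at 0 h 3993, 4612 and 4248, with no overlap. The rise was 1.51-fold (log2 0.60 ± 0.0837, limma adjusted p = 8.74e-10). Hba-x was 1 of 4 windows called higher of 568 (0.704%), while the median window fell by 0.56. Both promoters showed it: from Hba-a1 the level went from 1098 ± 75.1 to 1622 ± 134 per kilobase and from Hba-a2 from 904 ± 72.3 to 1403 ± 112 (n = 3 each). Relative to the rest of the domain Hba-x differed by 0.22 on the log2 scale (p = 0.2, exact permutation test), and its groups overlapped. Without the variance trend the call was lost (adjusted p = 0.934).

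**Figure D3:**
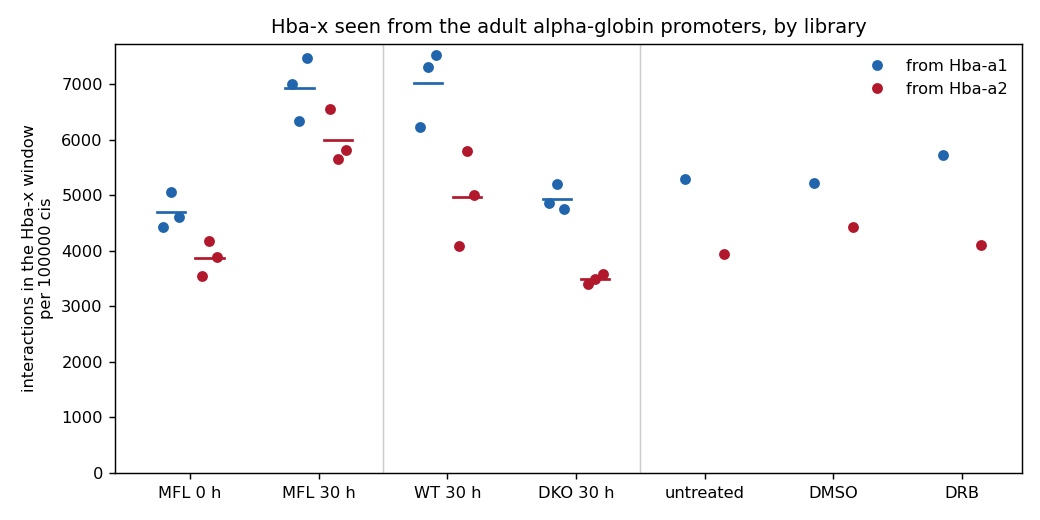
Hba-x interactions (reads per 100000 cis) in each library, from Hba-a1 (blue) and Hba-a2 (red), in MFL at 0 h and 30 h, WT, DKO, and the single untreated, DMSO and DRB libraries. From each promoter the 30 h points lie above the 0 h points and the WT points above the DKO points, and the DRB library lies near its untreated and DMSO partners.

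The rise within Hba-x was uneven, and 4 of its 13 fragments were called higher, against 2.05% of the 782 tested. Fragment 5, the 47 bp upstream of the gene printed above, had 474.5, 356 and 288.5 at 30 h and 114, 37.9 and 97.9 at 0 h (log2 2.26 ± 0.483, limma adjusted p = 2.87e-04). Fragment 10, the 97 bp of coding sequence, had 1037, 660.1 and 783 at 30 h and 218, 250.5 and 291 at 0 h (log2 1.69 ± 0.247, adjusted p = 3.81e-09). Fragment 6, which runs for 726 bp from the promoter into exon 2, rose by 0.85 ± 0.167, and fragment 13, downstream, by 0.66 ± 0.181 on the log2 scale (adjusted p = 5.21e-05 and 0.0167). The largest differences were thus in short fragments. In the WT libraries of the deletion experiment, also at 30 h, fragment 10 had 466, 455.5 and 512, below every 30 h library of the time course, and fragment 5 had 154, 318 and 248.5. Without the variance trend 0 of the 13 fragments were called.

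**Figure D4:**
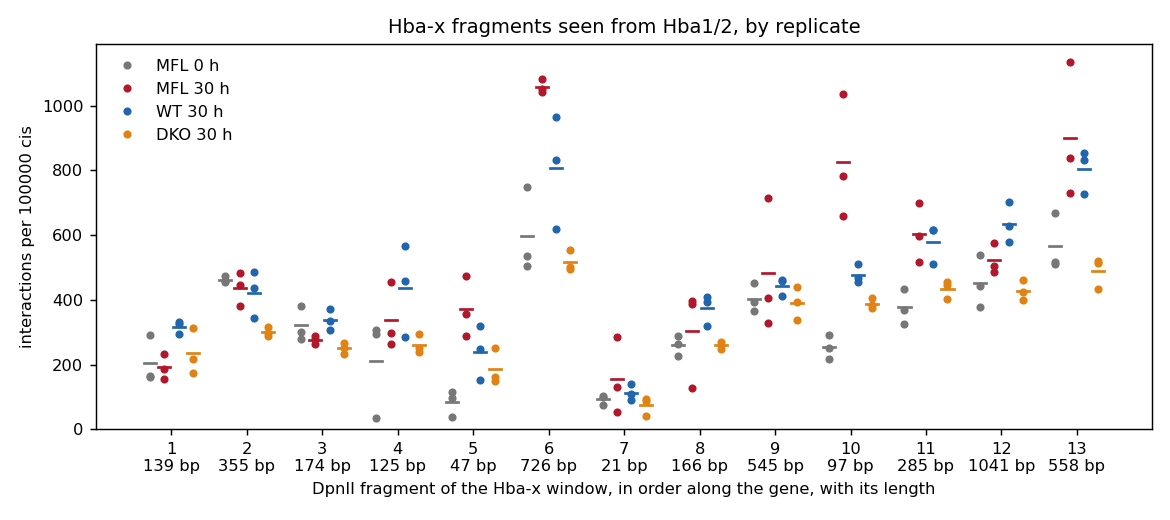
Hba-x interactions per fragment (reads per 100000 cis, mean of Hba-a1 and Hba-a2) for the 13 DpnII fragments in order, with each replicate of MFL at 0 h and 30 h and of WT and DKO. The 30 h points rise above the 0 h points at fragments 5, 6, 10 and 13, and DKO points lie below WT points at fragments 6 and 13.

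From HS39.5 no change in any of the 3 genes between 0 h and 30 h was detectable. Hba-x had 832.5, 821 and 981 at 30 h and 979.7, 897 and 1106 at 0 h, and Hbq1b had 1072, 1502 and 1300.0 at 30 h and 1643, 1303 and 1234 at 0 h. Hbq1a had 531, 1023 and 748 at 30 h and 992, 739 and 879 at 0 h. The groups overlapped for every gene. The log2 differences were -0.18 ± 0.276, -0.11 ± 0.222 and -0.22 ± 0.301 (limma adjusted p = 0.889, 0.914 and 0.889). In this comparison limma called 1 of 515 windows (0.194%), Nprl3, and 0 of 1450 fragments. At an unadjusted p under 0.05 it had 21 windows and 38 fragments, 0 of them members, and edgeR, which called 0 and 0, had 34 and 38. The signs were not settled, with 0.27 for Hba-x and 0.012 for Hbq1b without flanks, and up to 0.018 for Hbq1a with a library left out.

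Deletion of the enhancers R1 and R2 lowered contact between Hba-x and the adult promoters. In DKO, Hba-x had 4126, 4347 and 4168 reads per 100000 cis from Hba1/2, and in WT 5157, 6549 and 6258. Every DKO library was below every WT library, 1.41-fold lower on average (log2 -0.50 ± 0.0657, limma adjusted p = 6.15e-07). Only 2.21% of the 543 windows were called lower, and the median window was 0.54 higher. The DKO levels, 1154 ± 55.9 per kilobase from Hba-a1 and 815 ± 22 from Hba-a2 (n = 3), can be set beside 1098 ± 75.1 and 904 ± 72.3 at 0 h, without a test across these experiments. Relative to the rest of the domain, Hba-x was 0.16 higher in DKO on the log2 scale (p = 0.1, exact permutation test), so that the rest of the domain had the larger drop. Of the 13 fragments, all were lower and 8 were called, against 14.5% of 580 tested, a count that came to 3 without WT replicate 2 or without WT replicate 3. Fragment 13 had 519, 433 and 515 in DKO and 727, 854.5 and 833 in WT (log2 -0.72 ± 0.117, adjusted p = 3.34e-08), while fragment 10, with fragment 5 the most different between 0 h and 30 h, was not called (-0.30, adjusted p = 0.141). Without the variance trend the window call was lost (adjusted p = 0.251), and 0 of the fragments were called.

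From the CTCF sites beyond the θ genes, contact with both θ genes was lower in DKO, and Hba-x was not called. From CTCF_44/CTCF_48 (mean of both), Hbq1b had 976, 1002 and 999 in DKO and 1329.6, 1674 and 1484 in WT, 1.5-fold lower (log2 -0.59 ± 0.0776, limma adjusted p = 1.02e-06). Hbq1a had 877, 870.1 and 849 in DKO and 1157, 1243.5 and 1208 in WT, 1.39-fold lower (log2 -0.47 ± 0.0767, adjusted p = 1.87e-05). Neither pair of groups overlapped. By limma 5.58% of the 466 windows tested were called lower. Hba-x had 399, 420.3 and 475 in DKO and 364, 409 and 426 in WT, which overlapped (0.11 ± 0.112, adjusted p = 0.543). The log2 ratio of Hba-x to Hbq1b, which sets the genes against each other, was -2.43 in WT and -1.73 in DKO without overlap (p = 0.1, exact permutation test, the smallest possible, adjusted p = 0.193). The adult genes beside them were not called, at 0.23 for Hba-a1 and -0.19 for Hba-a2 (adjusted p = 0.401 and 0.318). Both adult promoters were viewpoints in these libraries, so the fragments within 1 kb of them had been dropped. Only the remainder of each adult window was compared, which is no like-for-like contrast with the θ genes.

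Among fragments seen from these CTCF sites, 4 of 8 in Hbq1b, 2 of 4 in Hbq1a and 0 of 12 tested in Hba-x were called lower in DKO, against 9.07% of 959, and these 6 calls came to 2 without WT replicate 2 and to 3 without DKO replicate 3. Fragment 3 of Hbq1b, its highest, had 226, 162 and 194 in DKO and 285, 333 and 343 in WT (log2 -0.73 ± 0.152, limma adjusted p = 0.00297). Fragment 7 of Hbq1b, downstream of the gene, had 77.1, 56.2 and 81.7 in DKO and 111, 133.5 and 132 in WT (log2 -0.81 ± 0.198, limma adjusted p = 0.00872). None of this fragment's words recur in the Hbq1a window (0%). Fragment 4 of Hbq1a, under 5% shared, was not called (-0.34, adjusted p = 0.137), and with fragments under 5% shared alone the Hbq1a window call was lost (-0.34, adjusted p = 0.0662). From CTCF_48 alone Hbq1a was not called either (-0.16, adjusted p = 0.399), and without the variance trend neither θ gene was (adjusted p = 0.114 and 0.155) and 0 member fragments were called.

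From HS39.5, on the enhancer side, none of the 3 genes was called in DKO. Hba-x had 986, 1012 and 985 in DKO and 821, 845 and 805 in WT (0.27 ± 0.106, limma adjusted p = 0.2). Hbq1b had 1859.7, 1870.1 and 1643 in DKO and 1131, 1637 and 1409 in WT (0.38 ± 0.123, adjusted p = 0.141), and Hbq1a had 1046, 909.5 and 904.5 and 828, 1154 and 1216 (-0.14 ± 0.139, adjusted p = 0.61). The groups of Hba-x and Hbq1b did not overlap and both were higher in DKO, near the median window at 0.39, whereas those of Hbq1a overlapped. Called windows made up 2.5% of 440, and called fragments 7.96% of 666, 0 of the 25 members among them. Hba-x and Hbq1b had unadjusted p-values under 0.05 by limma and edgeR, as had 76 and 77 of all 440 windows. By edgeR 0 of the 3 member windows were called, against 13 of 440, and 2 of the 25 member fragments, against 66 of 666. The Hbq1b call was gained when values were scaled to the reads within 500 kb (0.53, adjusted p = 0.0198), and so was that of Hba-x (0.43, adjusted p = 0.0293). Hbq1b was called as well with no filter on low values, with the replicate number as a block and with fragments under 5% shared alone (adjusted p = 0.0153, 0.0131 and 0.0274), and Hbq1a came to 0.011 when scaled within 500 kb. From this CTCF site the log2 ratio of Hbq1b to Hbq1a was 1.63 in DKO and 1.1 in WT (p = 0.1, exact permutation test).

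Deletion of the adult α-globin genes (AMKO) took Hbq1b, which lies between them, along. From R1 and R2, the fragments with lost signal ran over chr11:32182971-32198228, 15.258 kb in 39 fragments, which kept 7.32% of the WT level from R1 and 6.98% from R2. This interval was set by the lost signal itself, so its low share follows from that choice. Hbq1b lay inside it. Hbq1b had 373 reads per 100000 cis in AMKO and 2441 in WT from R1, and 391 and 2789.6 from R2, or 15.3% and 14% of WT. Hbq1b fragments 1 to 4, of whose 50-base words 32.0% recur in Hbq1a, kept 21.1% and 20.2%, and fragments 5 to 8, with 0% in Hbq1a, kept 3.7% and 4.87% (a split chosen after the values were seen). Fragment 4, with 3.35% of its words in Hbq1a, still kept 16.9% and 19.3%. How much of the remaining signal came from reads of the other θ copy was not tested.

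The genes on either side of the deletion differed in what they kept. With 1 library per genotype there is no replicate check and no test, and the intervals given are 95% and cover counting error only. Hba-x, upstream, had 2351 in AMKO and 2142 in WT from R1 (log2 0.13, -0.03 to 0.29). From R2 it had 2521 and 2784 (log2 -0.14, -0.26 to -0.02). The R1 interval includes 0, so no direction was settled from R1. With the lost interval left out of the totals, Hba-x came to -0.012 from R1 (-0.17 to 0.15) and -0.31 from R2 (-0.43 to -0.19). Hbq1a, downstream of the deletion, was lower from both. It had 866 in AMKO and 1504 from R1 (57.6%, log2 -0.80, -1.02 to -0.57) and 710.2 and 1336 from R2 (53.2%, log2 -0.91, -1.11 to -0.71). Its fragment 4, under 5% shared, kept 57.3% and 59.5%. The lost interval lies between Hbq1a and the enhancers. Hbq1a was thus nearer to R1 and R2 along the AMKO chromosome, and values were not adjusted for distance. The rest of the domain outside the lost interval kept 97.2% from R1 and 82.6% from R2. Of all windows, 8.95% and 6.77% were lower by over 2-fold in AMKO, and 29.3% and 34.6% were higher by over 2-fold. On these totals the difference of Hbq1a stayed under 2-fold from both viewpoints. With the lost interval left out of the totals, Hbq1a kept 52.1% from R1 (log2 -0.94, -1.16 to -0.72). From R2 it then kept 47.3% (log2 -1.08, -1.28 to -0.88), over 2-fold lower.

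**Figure D5:**
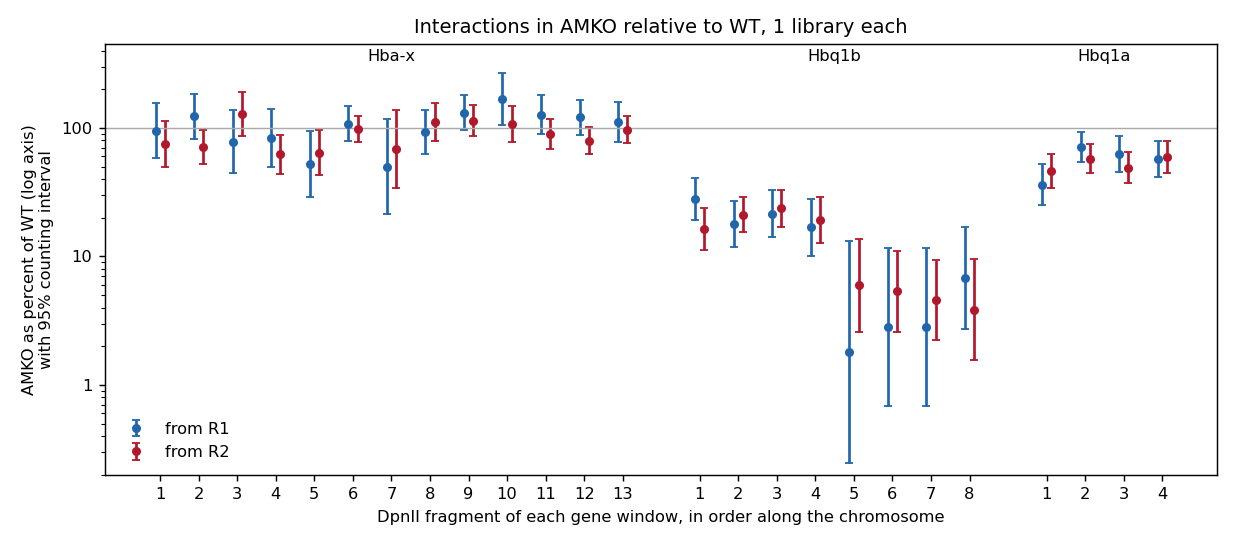
AMKO as percent of WT (log axis, 95% counting intervals) for each member fragment of Hba-x, Hbq1b and Hbq1a, seen from R1 and R2 in 1 library per genotype. Hba-x fragments scatter around the WT level, Hbq1b fragments fall to a few percent over fragments 5 to 8, and Hbq1a fragments lie below WT.

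After inhibition of elongation with DRB at 100 µM for 3 h, no change of Hba-x contact with the adult promoters was detectable at this depth. From Hba-a1, Hba-x had 5301 reads per 100000 cis in untreated cells, 5217 with DMSO and 5717 with DRB, from 283, 183 and 468 reads. The shares of cis reads had 95% Wilson intervals of 4.73% to 5.93%, 4.53% to 6.00% and 5.23% to 6.24%, which overlap. DRB against DMSO came to 0.13 on the log2 scale, with a counting interval of -0.11 to 0.37. From Hba-a2 the values were 3945, 4431 and 4100.0, -0.11 for DRB against DMSO, so the sign differed between the promoters. These libraries were shallow, and 72.9% of windows from Hba-a1 and 73.9% from Hba-a2 differed by over 2-fold between DRB and DMSO.

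How the 3 genes stood among the other genes of the locus varied by comparison. A fixed list of 10 neighbours, Hba-a1, Hba-a2 and Nprl3 among them, had 2 called higher and 6 lower in MFL from R1/R2 (13.4% and 5.36% of all windows), and 3 and 7 from E (11.8% and 12.1%). From R1/R2 the adult genes were higher by 1.58 (Hba-a1) and 1.56 (Hba-a2) on the log2 scale (limma adjusted p = 1.22e-06 and 1.01e-05), between Hbq1b and Hba-x. From A their log2 differences were -1.01 and -0.98 (adjusted p = 1.25e-05 and 1.09e-06), beside -1.01 for Hba-x and values just above 0 for both θ genes. The list had 0 higher and 6 lower from C (28.3% and 4.55% of all windows), 0 and 8 from Cx (33.6% and 6%), 4 and 5 from A (11.6% and 6.5%), and 1 and 4 from Ex (6.38% and 4.04%). Over time it had 2 higher and 2 lower from Hba1/2 (0.704% and 0.88%) and 1 and 0 from HS39.5 (0.194% and 0%). In DKO it had 6 higher and 2 lower from Hba1/2 (18.2% and 2.21%), 1 and 3 from HS39.5 (1.59% and 0.909%), and 2 and 5 from CTCF_44/CTCF_48 (15.2% and 5.58%). In the libraries over time and of DKO and WT, both adult promoters were viewpoints. Fragments within 1 kb of them had been dropped, so Hba-a1 and Hba-a2 entered these counts with incomplete windows. Nprl3, the gene whose introns hold R1 and R2, had the same sign as Hba-x in both Hba1/2 comparisons, with 0.19 over time and -0.72 in DKO (adjusted p = 3.92e-05 and 1.07e-18).

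The genes whose contact profile was most like each member were globin genes too. Over 40 pairs of viewpoint and condition, which share libraries, log2 interactions per kilobase of Hba-x correlated most with Hba-a1 (Pearson r = 0.915), then Hbq1b (0.845) and Hba-a2 (0.824), among 17 genes within 300 kb. Hbq1b was most like Hba-a2 (0.947), Hba-a1 (0.927) and Hbq1a (0.910) over 26 pairs and 16 genes. For Hbq1a the leading genes were Hbq1b (0.910), Hba-a2 (0.836) and Hba-a1 (0.799). Genes of the cluster also share their distance to every viewpoint more closely than genes further off, and no p is given. Where the adult promoters were viewpoints, the profiles of Hba-a1 and Hba-a2 lacked the fragments within 1 kb of them.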

How the data were processed

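NG Capture-C had been run on mES cells, MFL cells and their mutants. The authors trimmed reads with Trim Galore and mapped them to mm9 with Bowtie (versions not given in the sources used here), counted reporter reads per DpnII fragment, and deposited values of the RPM kind, here reads per 100000 reporter reads of a viewpoint and not raw counts. Whole reads were recovered (within 0.1 of a whole number for 100% of values) in 144 of 147 pairs of library and viewpoint, and edgeR was run on these as an alternative. In the other 3, where 1 read is worth close to a power of 10, scaling and rounding could not be told apart, so A and Ex have no edgeR value and the DRB library no interval from Hba-a2.

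Fragments within 1 kb of any viewpoint were dropped and values rescaled to 100000 on chromosome 11. Where a replicate was present more than once, its repeats were averaged as 1 library. These repeats were NextSeq and MiSeq runs over time. For E, Ex, A, C and Cx they are only numbered as repeats of a replicate, so what separates them is not known. The first of each is called the first run here. R1 with R2, Hba-a1 with Hba-a2, and CTCF_44 with CTCF_48 were also averaged. Gene windows and fragments with a mean of at least 10 were tested with limma 3.58.1 (R 4.3.3, with the variance trend) on log2(value + 1), so low values understate a fold change, with Benjamini-Hochberg adjustment over all tested in a comparison at 0.05. Ratios used a two-sided exact permutation test. Whether groups overlapped is described for the members only, and the share of all windows or fragments without overlap is not given. With 3 libraries a side, full separation alone has p = 0.1 by an exact permutation test. Correlations between same-numbered libraries ran from -0.17 to 0.11, so no replicate block was used. Depth is 2287 to 188598 reporter reads per viewpoint and library, and 3 reads are worth 1.95 to 257 per 100000 cis.

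The members and lists were chosen with earlier results of these data known. For each comparison the 3 fragments per gene with the highest mean could be named. Fragment 5 of Hba-x, fragment 7 of Hbq1b, fragment 4 of Hbq1a from R1/R2 and fragment 10 of Hba-x in DKO fall outside that rule and were named after their values were seen. Alternatives were the pseudocount, filter, scaling, excluded distance, flank, variance trend, single viewpoints, first runs, edgeR version 4.0.16, replicate block and each library left out. Python 3.11.15, numpy 2.4.6, pandas 2.3.3, scipy 1.17.1 and matplotlib 3.10.9 were used.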

Additional observations from a re-analysis of the deposited data

How the results depend on the processing

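Of the log2 differences of single genes under alternatives, 483 kept direction and side of the threshold, 10 lost and 7 gained the call, and 16 turned direction. Counts of member windows called stayed within 1.5 times in 187 cases and moved further in 13, and counts of member fragments stayed in 130 and moved in 48. The cause of these changes was not tested, except where fewer fragments could be tested. The choice that cost most calls was one variance for all levels in place of limma's trend. Samples shared only a number (correlations -0.17 to 0.11, 0 to 3 libraries best matched by their own number), and a fit with the number as a replicate block called 1 window from HS39.5 in DKO in place of 0 (Hbq1b, limma adjusted p = 0.0131), 1 fragment from Ex and 1 from A in place of 0, and 6 from Cx in place of 13. For all features, edgeR called 149 windows and 244 fragments from R1/R2 where limma called 84 and 129, and it kept every member window that limma called where it could be run.

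Member windows called came to 1 from Ex with the values as deposited (0 as reported), and from A to 0 without the trend and 2 with no flank (1 as reported). Without the trend they came to 0 from Hba1/2 over time, 0 from Hba1/2 in DKO (1 each as reported) and 0 from CTCF_44/CTCF_48 (2 as reported). From HS39.5 in DKO they came to 1 with no filter, 2 scaled within 500 kb and 1 with fragments under 5% shared. From CTCF_44/CTCF_48 they came to 1 from CTCF_48 alone, 1 with fragments under 5% shared, and 0 with 5 kb left out, where 1 was tested.

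Member fragments called from R1/R2 (17 as reported) were 4 without the trend, 11 from R1 alone and 10 from R2 alone. From Ex they were 1 at a pseudocount of 10 and 1 with values as deposited, and from A 3 with no filter, 5 at a mean of at least 50 and 5 with values as deposited (0 as reported for both). From C (11 as reported) they were 18 at a pseudocount of 10, 1 with no filter, 0 at a mean of at least 50 with 0 tested, 21 with values as deposited, 2 scaled within 500 kb, 3 without the trend, 0 from first runs, 5 by edgeR and 0 to 20 with a library left out (0 without any 1 of the 3 mES libraries, 20 without MFL replicate 1). From Cx (13 as reported) they were 0 with no filter, 0 at a mean of at least 50 with 0 tested, 0 scaled within 500 kb, 4 without the trend, 0 from first runs and 0 to 16 with a library left out (0 without any 1 of the 3 mES libraries). From Hba1/2 over time they were 0 without the trend (4 as reported). From Hba1/2 in DKO (8 as reported) they were 4 with values as deposited, 2 scaled within 500 kb, 0 without the trend, 3 from Hba-a2 alone and 3 to 11 with a library left out (3 without WT replicate 2 or without WT replicate 3). From HS39.5 in DKO (0 as reported) they were 2 at a pseudocount of 10, 4 at a mean of at least 50, 4 scaled within 500 kb and 2 by edgeR. From CTCF_44/CTCF_48 (6 as reported) they were 1 scaled within 500 kb, 0 with 5 kb left out and 9 tested, 0 without the trend, 0 from CTCF_48 alone and 2 to 8 with a library left out (2 without WT replicate 2, 3 without DKO replicate 3).

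Log2 differences that turned direction were all of uncalled genes. From Ex, Hbq1b came to -0.17 with values as deposited, -0.27 from first runs and -0.13 to 0.28 with a library left out, and Hbq1a to -0.0052 as deposited and -0.13 with 5 kb left out. From A, Hbq1b came to -0.13 and Hbq1a to -0.11 as deposited, and Hbq1a to -0.63 with 5 kb left out. From HS39.5 over time, Hba-x came to 0.27 with no flank, Hbq1b to 0.012 with no flank, 0.13 with fragments under 5% shared and -0.23 to 0.016 with a library left out, and Hbq1a to -0.45 to 0.018. From HS39.5 in DKO, Hbq1a came to 0.011 scaled within 500 kb.

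Log2 ratios that turned direction were from Ex Hba-x to the rest of the domain (-0.17 to 0.040 with a library left out), Hbq1b to the rest (-0.050 from first runs), Hba-x to Hbq1b (0.032 from first runs) and Hbq1b to Hbq1a (0.18 with 5 kb left out). From A they were Hbq1a to the rest (-0.15 with 5 kb left out) and Hbq1b to Hbq1a (0.81 with 5 kb left out, 0.0051 from first runs, -0.071 to 0.029 with a library left out), and from Cx Hba-x to the rest (-0.13 to 0.14). From HS39.5 over time they were Hba-x to Hbq1b (-0.20 to 0.10 with a library left out), Hba-x to Hbq1a (-0.062 from first runs, -0.16 to 0.32 with a library left out) and Hbq1b to Hbq1a (-0.0081 from first runs, -0.0027 to 0.23 with a library left out). From HS39.5 in DKO they were Hba-x to the rest (-0.0072 with 5 kb left out) and Hba-x to Hbq1b (-0.21 to 0.034 with a library left out), and from CTCF_44 alone Hbq1b to Hbq1a came to 0.072. In AMKO, Hba-x came to -0.012 from R1 and -0.31 from R2 on the log2 scale when the lost interval was left out of the total. Hbq1b came to -3.56 from R1 and -3.53 from R2 with fragments under 5% shared.

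Depth limits C and Cx in MFL most, where a gene had 0 to 19 reads in a library, and the single AMKO, WT, untreated, DMSO and DRB libraries have counting error only.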
